A study of Mus musculus with 2 samples.

Results

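Among fibro/adipogenic progenitors (FAPs) of mouse limb muscle, a small number of Dpp4-type cells carried transcripts of Krt7 or Plet1, and these cells are described here. A cell was taken as Dpp4-type when Pi16, Sema3c, Anxa3 and Efemp1 together gave at least 25 of every 10000 unique molecular identifiers (UMIs, each standing for 1 captured transcript) of that cell. It was taken as Krt7/Plet1-positive when it also held at least 1 UMI of Krt7 or Plet1. The rule found 315 Krt7/Plet1-positive cells among 2301 Dpp4-type cells and 8481 cells in all, or 13.7% of Dpp4-type cells and 3.71% of all cells. The 1986 Dpp4-type cells with no UMI of either gene served as the comparison throughout. Since these 6 genes chose the cells, their values are given as a description only, and they are left out of every statement on other genes.

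FAPs are mesenchymal cells that lie between muscle fibers and around nerves and vessels, and that support muscle upkeep, repair and the nerve-muscle junction. In many tissues, fibroblasts marked by Dpp4 and Pi16 form a pool that sits in the outer connective tissue sheaths, whereas fibroblasts marked by Cxcl14 or Smoc2 lie within the tissue. Krt7 encodes a type II keratin, a filament protein best known from simple epithelia, and Plet1 encodes a GPI-anchored surface protein known from trophoblast and epithelial progenitors. Neither gene is a usual marker of fibroblasts. In the GENCODE annotation of GRCm38 (mm10), Krt7 lies on the plus strand of chromosome 15 from 101411043 to 101430313 and Plet1 on the plus strand of chromosome 9 from 50494525 to 50505482.

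The cells came from a study of Bap1, a deubiquitinase of the Polycomb system, in mesenchymal progenitors of the limb. FAPs negative for the lineage markers CD45 and CD31 and for Vcam1 and positive for Sca1 were sorted from limb muscle of 3-week-old C57BL/6 mice and measured by droplet single-cell RNA sequencing of transcript 3′ ends. The library labelled Bap1WT had the genotype Bap1f/f, and the library labelled Bap1ΔMPC the genotype Prx1-Cre;Bap1f/f. Both carried the floxed allele, and Prx1-Cre acts in the early limb bud mesenchyme, so that the deletion is not limited to FAPs or to adult cells. With 1 library per genotype, genotype, animal and library cannot be told apart, no difference between the libraries has a replicate check, and no test is given. Intervals are exact 95% intervals that cover counting error only.

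The libraries held 4103 and 4378 cells, with 51015705 and 49540066 UMIs and medians of 12232 and 11017.5 UMIs per cell, so that depth was a little lower in the Bap1ΔMPC library. The targeted gene did not separate the labels. Bap1 stood at 17.6 CPM (UMIs scaled to a total of 1000000) over all cells of the Bap1WT library and at 21.6 CPM over those of the Bap1ΔMPC library. In the Krt7/Plet1-positive cells Bap1 gave 14 UMIs (29.1 CPM) and 97 UMIs (29.0 CPM). Counts per gene do not show which exons were read, so these values do not check the deletion, and directions between the libraries rest on the labels. The libraries shared 5 cell barcodes, and none belonged to a Krt7/Plet1-positive cell.

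Krt7/Plet1-positive cells made up a larger part of the Dpp4-type cells in the Bap1ΔMPC library. They were 34 of 1050 Dpp4-type cells in the Bap1WT library, or 3.24% (2.25 to 4.50%). In the library labelled Bap1ΔMPC they were 281 of 1251, or 22.5% (20.2 to 24.9%). The intervals did not overlap, but they cover counting error within each library only. Krt7 and Plet1 made the rule, so the gap is a description and was not tested. The Dpp4-type cells themselves were 25.6% and 28.6% of all cells, so the gap lay within this class rather than in its size. Of all cells, the positive ones were 0.829% and 6.42%. After each cell had been thinned to 5000 UMIs, with 120 and 210 shallower cells left out, the shares were 1.57% (0.903 to 2.54%) and 18.7% (16.6 to 21.1%).

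Both genes took part. A UMI of Krt7 was found in 21 Dpp4-type cells (2%) of the Bap1WT library and in 178 (14.2%) of the Bap1ΔMPC library. For Plet1 the numbers were 14 cells (1.33%) and 141 cells (11.3%). Cells with both genes were 1 and 38. In the Bap1ΔMPC library 21.3% (15.6 to 28.1%) of Krt7-positive Dpp4-type cells also held Plet1, against 9.60% of the Krt7-negative ones. In the Bap1WT library it was 1 of 21 cells (4.76%) against 1.26%.

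The number of transcripts per cell differed as well. In the Bap1WT library 24 of the 34 positive cells held a single UMI of the pair, 4 held 2 and 6 held 3 or more, with at most 14 in a cell. Of the Bap1ΔMPC cells 66 held 1 UMI, 31 held 2 and 184 held 3 or more, with at most 89. As summed levels, Krt7 stood at 54.0 CPM and 255 CPM in the positive cells of the Bap1WT and Bap1ΔMPC libraries, and Plet1 at 104 CPM and 372 CPM. Most positive cells of the Bap1WT library thus rest on 1 UMI, and those of the Bap1ΔMPC library on several.

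Cells outside the Dpp4-type class held such UMIs too. Below 25 on the Dpp4-type sum, 36 of 3053 cells (1.18%) of the Bap1WT library and 153 of 3127 (4.89%, 4.16 to 5.71%) of the Bap1ΔMPC library held a UMI of Krt7 or Plet1, at median depths of 11829 and 10733 UMIs. Below 5 on the sum the shares were 0.509% and 2.02%, at 11522 and 10647 UMIs. Thinned to 5000 UMIs, they were 0.506% and 2.82% below 25 and 0.293% and 1.04% below 5. The shares among Dpp4-type cells were above these in each library, although cells close to the cut on either side were not set apart in the Bap1ΔMPC library. At sums of 20 to 25 the shares were 1.74% and 18.2% (12.6 to 24.9% for the latter), and at 25 to 30 they were 5.26% and 13.4% (8.67 to 19.4%). Krt7 was in 2.02% of Bap1WT cells with sums of 5 to 25 and in 2% of the Dpp4-type ones.

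Krt7 and Plet1 followed the Dpp4-type sum in different ways. In the Bap1ΔMPC library Plet1 was found in 1.55% of cells with a sum of 5 to 25, then in 4.64% at 25 to 50, 16.4% at 50 to 100 and 30.5% at 100 or more. Krt7 was found there in 8.84%, 15.3%, 13.6% and 9.76% of the same classes. In the Bap1WT library Plet1 ran through 0.0779%, 0.503%, 1.57% and 2.78%, and Krt7 through 2.02%, 3.27%, 1.18% and 1.39%. Plet1 was most frequent where the Dpp4-type genes were highest, and Krt7 was not. Yet the intervals of the classes above 25 overlapped for Krt7 in both libraries, and for Plet1 in the Bap1WT library. The rise of Plet1 above the cut thus rests on the Bap1ΔMPC library. Below a sum of 5, Plet1 was in 0 of 1769 cells of the Bap1WT library, which by a floor of 3 counts allows a share of up to 0.170%. At the cut itself, the lowest positive cells had sums of 25.74 and 25.18 in the 2 libraries, and the highest cells with either gene left below it had 21.34 and 24.89. Between 20 and 25 lay 2 and 30 such cells, and between 25 and 30 lay 5 and 23.

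**Figure D1:**
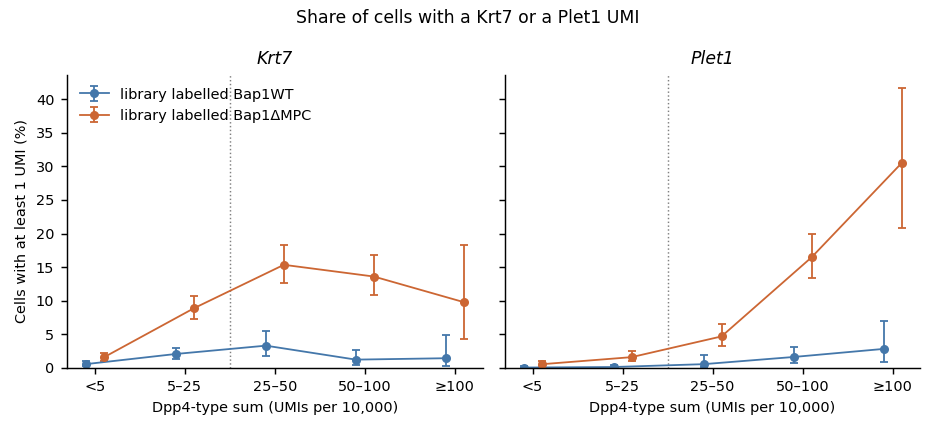
Share of cells with a UMI of Krt7 or of Plet1 (vertical axis, percent) by class of the Dpp4-type sum (horizontal axis, UMIs per 10000), in the library labelled Bap1WT and the library labelled Bap1ΔMPC; bars are exact 95% intervals for counting error and the dotted line is the cut of 25. In the Bap1ΔMPC library Plet1 reached 30.5% in the highest class, while Krt7 was between 9.76% and 15.3% in the 3 classes above the cut.

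The positive cells carried transcripts of Dpp4 and of general FAP markers, although the sort on Sca1 and the Dpp4-type cut bear on this. Dpp4 itself, a surface peptidase that was not part of the rule, had a UMI in 91.2% and 60.9% of positive cells of the Bap1WT and Bap1ΔMPC libraries. It had a UMI in 90.75% and 77.3% of the other Dpp4-type cells. Its level was 270 and 189 CPM in positive cells, beside 301 and 293 CPM in the others. The sorting marker Ly6a (Sca1) stood at 2807 and 2831 CPM, and Pdgfra, the receptor that defines FAPs, at 236 and 151 CPM, beside 242 and 178 CPM. The stem and progenitor antigen Cd34 stood at 1809 and 1874 CPM, beside 1544 and 1720 CPM. Pdgfra and Dpp4 were lower in the positive cells of the Bap1ΔMPC library, with log2 ratios of -0.24 and -0.63, and Dpp4 there had an interval of -0.76 to -0.51. Smn1, needed for spliceosome assembly, stood at 23.03 and 23.4 CPM, beside 23.33 and 23.95 CPM. The study reports less SMN protein in FAPs of Bap1ΔMPC mice, without a difference in mRNA, and only transcripts were counted here.

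Defining markers of other cell types were at or near 0. In all 315 positive cells there was no UMI of Ptprc (leukocytes), Cdh5 (endothelium), Pax7 (muscle stem cells), Sox10 (Schwann cells) or Adipoq (adipocytes). The epithelial genes Epcam, Cdh1, Krt5, Krt8, Krt14 and Krt18 and the mesothelial genes Msln, Upk3b and Wt1 gave no UMI either. By the same floor of 3 counts, a count of 0 in 315 cells allows a share of cells with a UMI of up to 0.952%. Krt8 and Krt18, the common keratin pair of simple epithelia, were also at 0 in all 1986 other Dpp4-type cells. The Krt7 UMIs of these cells were thus not joined by UMIs of that pair.

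Of the wider epithelial list, 62 of 72 genes were at 0 in the positive cells of the Bap1WT library and 43 of 72 in those of the Bap1ΔMPC library, and the list summed to 176 and 279 CPM, beside 180 and 199 CPM in the other Dpp4-type cells. Krt80, a type II keratin, and the keratin Krt10 made up much of it. Krt80 stood at 67.0 and 170.5 CPM in positive cells against 43.6 and 96.0 CPM, with log2 ratios of 0.62 (0.06 to 1.13) and 0.83 (0.68 to 0.98). Krt10 stood at 79.55 and 33.37 CPM against 51.24 and 33.46 CPM. Its ratio was 0.63 (0.12 to 1.11) in the Bap1WT library, and its Bap1ΔMPC interval of -0.32 to 0.31 spanned no difference. Krt19, a type I keratin, had no UMI in the positive cells of the Bap1WT library and 16 UMIs in those of the Bap1ΔMPC library, and was in 108 and 29 of the other Dpp4-type cells.

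Summed marker lists of other cell types were as follows in the positive and then the other Dpp4-type cells, first for the Bap1WT and then for the Bap1ΔMPC library. Immune genes (13 and 11 of 20 at 0 in the positive cells) summed to 20.9 and 14.5 CPM, and to 21.9 and 26.0 CPM. Endothelial genes (13 and 5 of 17 at 0) summed to 333 and 272 CPM, and to 366 and 277 CPM, with Tek, which FAPs express, at 243 and 283 CPM in the positive cells. Muscle genes (12 and 9 of 20 at 0) summed to 161 and 89.3 CPM, and to 151 and 91.6 CPM. This last sum was higher in the positive cells of both libraries, and it holds Des as well as the contractile genes Acta1 and Mylpf. Acta1 stood at 31.4 and 10.8 CPM in the Bap1WT library and at 12.0 and 11.7 CPM in the Bap1ΔMPC library.

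Schwann cell genes (12 and 4 of 16 at 0) summed to 528 and 449 CPM, and to 612 and 533 CPM. Tendon genes (9 and 0 of 14 at 0) summed to 2372 and 2989 CPM, and to 3182 and 3329 CPM. Mural genes (6 and 2 of 13 at 0) summed to 98.4 and 110 CPM, and to 108 and 105 CPM. Adipocyte genes (11 and 7 of 15 at 0) summed to 23.03 and 45.4 CPM, and to 70.3 and 70.5 CPM, and erythroid genes (3 and 2 of 6 at 0) to between 8.37 and 10.8 CPM everywhere. Mesothelial genes (11 and 8 of 14 at 0) summed to 4771 and 4534 CPM, and to 6275 and 5533 CPM, nearly all from genes that FAPs express. Their part in the values below was not tested.

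The positive cells resembled the other Dpp4-type cells in size and quality. Their median UMI counts were 14920.5 and 11814 against 13624.5 and 11632.5, their median numbers of detected genes 3925.5 and 3489 against 3675.5 and 3387.5, and their median mitochondrial shares 2.66% and 2.98%. Their median Dpp4-type sums, which the rule bears on, were 62.7 and 55.9 against 59.5 and 47.1. The positive cells of the Bap1WT library were thus the deepest of these groups.

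The first comparison asked which genes went with Krt7 and Plet1 among Dpp4-type cells. UMIs were summed over the positive cells and over the other Dpp4-type cells of the same library, and the ratio of the CPM values is given as log2. Genes with at least 20 UMIs in each library entered. In positive cells of both libraries, 37 of 11155 genes (0.332% of those compared) were more than 2-fold higher and 88 (0.789%) more than 2-fold lower. The intervals lay apart from no difference in both libraries for 8 of the 37 and for 40 of the 88. In the Bap1ΔMPC library alone 101 genes (0.905%) were over 2-fold higher and 429 (3.85%) lower, and in the Bap1WT library, with 34 positive cells, 606 (5.43%) and 639 (5.73%). With intervals apart these were 80 (0.717%) and 298 (2.67%) in the Bap1ΔMPC library and 264 (2.37%) and 147 (1.32%) in the Bap1WT library. The balance in the shared set depended on the minimum, with 92 higher and 89 lower genes at 1 UMI and 2 and 50 at 100 UMIs. At any size, intervals lay apart for 886 higher (7.94%) and 403 lower genes (3.61%) in the Bap1WT library and for 1492 (13.4%) and 958 (8.59%) in the Bap1ΔMPC library. Scaling by trimmed mean of M-values (TMM) in place of total UMIs shifted all these ratios by -0.19 in the Bap1WT and -0.06 in the Bap1ΔMPC library, and gave 30 higher and 128 lower genes. Among the 37 was Plet1os, named for its place opposite Plet1 and therefore not read apart from the rule.

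The genes higher in the positive cells were led by Dio2, Ackr4, Cyp21a1 and Des. Dio2, the enzyme that turns thyroxine into active thyroid hormone, stood at 27.2 CPM in positive cells and 2.95 CPM in the other Dpp4-type cells of the Bap1WT library, and at 36.1 and 14.2 CPM in the Bap1ΔMPC library. Its log2 ratios were 3.20 (2.18 to 4.14) and 1.35 (0.99 to 1.70). Ackr4, a scavenging receptor for the chemokines Ccl19, Ccl21 and Ccl25, stood at 109 against 32.6 CPM and at 100.4 against 47.1 CPM, with ratios of 1.74 (1.30 to 2.16) and 1.09 (0.89 to 1.29). It had a UMI in 58.8% and 33.5% of the positive cells against 19.1% and 21.3% of the others.

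Both were higher in the positive cells of each library, although at modest levels. Des, the intermediate filament protein of muscle, stood at 29.3 against 11.2 CPM and at 59.5 against 20.7 CPM, with ratios of 1.39 (0.49 to 2.19) and 1.52 (1.24 to 1.80). It was found in 32.4% and 33.1% of positive cells and in 9.84% and 14.2% of the others. Cyp21a1, a steroid 21-hydroxylase, stood at 23.03 against 5.17 CPM and at 17.4 against 8.01 CPM. In cells with at least 2 UMIs of the pair, the Bap1WT ratio of Des was 0.13. The fast myosin light chain gene Mylpf had ratios of 1.68 (0.83 to 2.42) and 0.39 (-0.09 to 0.86).

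The other 6 named higher genes held 3 to 7 UMIs each in the Bap1WT positive cells. C7, a terminal complement component, had ratios of 1.75 (0.37 to 2.88) and 2.09 (1.43 to 2.77) and Tenm4, a teneurin adhesion protein, of 1.53 (0.02 to 2.74) and 1.33 (0.84 to 1.82). For the phospholipid-binding Anxa8, the glucosidase Mgam, the phosphatase inhibitor Ppp1r14c and the metalloprotease Adamts6, the Bap1WT interval reached across no difference. Anxa8 stood at 12.6 against 5.17 CPM and at 31.3 against 9.60 CPM. All 3 UMIs of Ppp1r14c in the Bap1WT positive cells came from 1 cell. These 4 therefore rest on the Bap1ΔMPC library.

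The named lower genes included Postn, Eln and Mfap2, which encode matrix proteins. Postn, the matricellular protein periostin, stood at 858 CPM in positive cells against 2531 CPM in the Bap1WT library and at 508 against 1602 CPM in the Bap1ΔMPC library. Its ratios of -1.56 (-1.70 to -1.42) and -1.66 (-1.73 to -1.58) were close to each other. Eln, elastin, stood at 201 against 884 CPM and at 176 against 393 CPM, with ratios of -2.14 (-2.44 to -1.85) and -1.16 (-1.29 to -1.03). Mfap2, a microfibril glycoprotein, stood at 203 against 530.5 CPM and at 74.0 against 218 CPM, with ratios of -1.39 and -1.56. A further microfibril gene, Fbn2, had ratios of -2.79 and -2.05.

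Sfrp2 and Cpz were lower too. Sfrp2, a secreted Frizzled-related protein, stood at 153 against 790 CPM and at 75.8 against 193 CPM, with ratios of -2.37 (-2.72 to -2.04) and -1.35 (-1.55 to -1.16). Cpz, a carboxypeptidase with a Frizzled-like domain, stood at 52.3 against 201 CPM and at 10.8 against 77.7 CPM, with ratios of -1.94 (-2.57 to -1.38) and -2.84 (-3.37 to -2.36). Cpz was found in 6.41% of the positive and 26.7% of the other Bap1ΔMPC cells.

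The remaining named lower genes were Akr1c18, Cxcl10, Ptn and Serpina3c. Akr1c18, a progesterone-metabolizing reductase, stood at 35.6 against 280 CPM and at 18.3 against 92.4 CPM, with ratios of -2.98 (-3.76 to -2.30) and -2.33 (-2.73 to -1.96). The interferon-induced chemokine Cxcl10 had ratios of -1.83 and -1.62 and the growth factor Ptn of -2.08 and -1.98. A single cell gave 61% of the Cxcl10 UMIs and 75% of the Ptn UMIs of the Bap1WT positive cells. Serpina3c, a serine protease inhibitor, had only 3 and 4 UMIs in the positive cells. When the other Dpp4-type cells were weighted to the positive cells' distribution of the Dpp4-type sum, all 20 genes kept their direction, with Ackr4 at 1.73 and 0.96 and Postn at -1.55 and -1.53. Some did not stay past 2-fold in both libraries under other choices. In the library nearer to no difference, Cxcl10 had -0.85 with at least 2 UMIs of the pair and Eln -0.95 at a sum of at least 30. Eln had -0.93 there in cells with Krt7, with or without Plet1. Dio2 had 0.93 there in cells with Plet1, with or without Krt7. In cells with Plet1 and no Krt7, Dio2 had 0.38 (-0.34 to 1.02) in the Bap1ΔMPC library and 4.05 in the Bap1WT library.

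**Figure D2:**
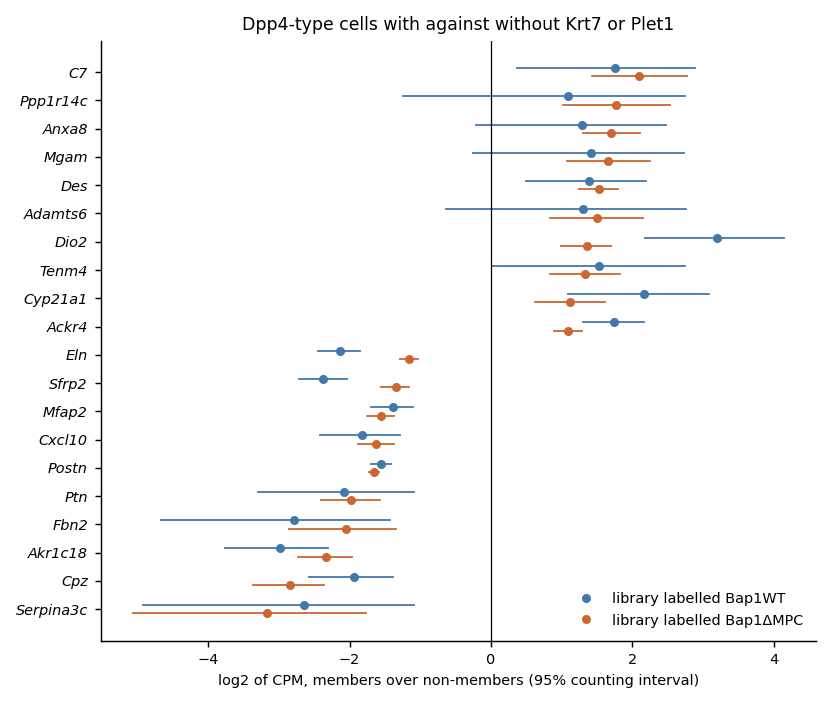
Log2 ratio of CPM in Krt7/Plet1-positive cells over the other Dpp4-type cells (horizontal axis) for the 20 named genes (vertical axis), in the library labelled Bap1WT and the library labelled Bap1ΔMPC; bars are exact 95% intervals for counting error and the vertical line marks no difference. Postn, at -1.56 and -1.66, had almost the same ratio in both libraries, and the Bap1WT intervals of Anxa8, Mgam, Ppp1r14c and Adamts6 crossed no difference.

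Levels by the number of Krt7 and Plet1 UMIs per cell are given as a description, since these UMIs made the rule and the genes were picked after their values were seen. Postn went from 1602 CPM in Bap1ΔMPC cells with none to 1156, 382 and 310 CPM in cells with 1, 2, and 3 or more UMIs, and in the Bap1WT library from 2531 to 1056, 427 and 513 CPM. Mfap2 went from 218 to 128.5, 76.4 and 55.1 CPM in the Bap1ΔMPC library, and Eln from 393 to 256, 175 and 150 CPM. Des went the other way, from 20.7 to 42.8, 46.4 and 67.3 CPM, as did Anxa8, from 9.60 to 21.4, 32.7 and 34.4 CPM. The Bap1WT library did not show these steps, with Des at 11.2, 38.3, 0 and 19.4 CPM and Anxa8 at 5.17, 12.8, 0 and 19.4 CPM. Ackr4 was no higher in Bap1ΔMPC cells with 1 UMI (42.8 CPM) than in cells with none (47.1 CPM), and reached 98.2 and 120 CPM with 2 and 3 or more. Dio2 showed no such steps, at 38.8, 40.9 and 34.4 CPM against 14.2 CPM.

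Median UMIs per cell over these classes were 11632.5, 11188, 11448 and 12078.5 in the Bap1ΔMPC library and 13624.5, 13236, 14517.5 and 17329.5 in the Bap1WT library, where depth was thus higher in cells with 2 and with 3 or more UMIs of the pair. Median Dpp4-type sums were 47.1, 55.8, 44.3 and 57.2 in the Bap1ΔMPC library. The Bap1WT classes with 2 and with 3 or more UMIs held 4 and 6 cells. Sfrp2 had no UMI in those 6 cells and stood at 120.5, 16.4 and 70.5 CPM over the positive classes of the Bap1ΔMPC library.

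**Figure D3:**
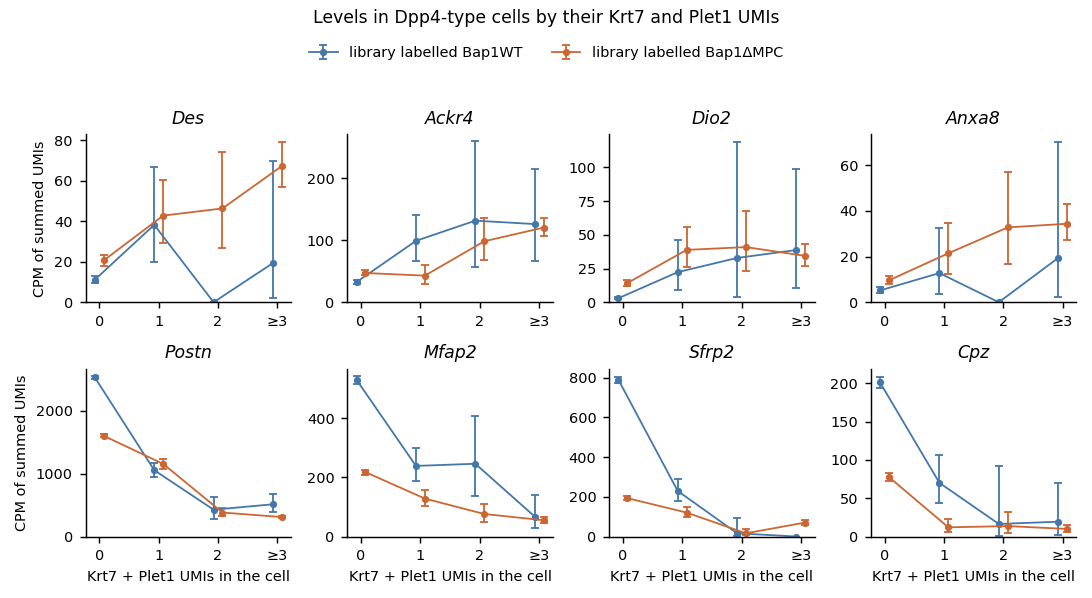
CPM (vertical axis) of 8 genes, picked after their values were seen, in Dpp4-type cells with 0, 1, 2 and 3 or more UMIs of Krt7 and Plet1 (horizontal axis) in both libraries; bars are exact 95% intervals for counting error, and points at 0 held no UMI and carry no bar. Postn, Mfap2, Sfrp2 and Cpz were lower and Des, Anxa8 and Dio2 higher in every positive class of the Bap1ΔMPC library than in its cells with none.

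Gene lists were read beside the medians of all genes, which were 0.11 in the Bap1WT and 0.05 in the Bap1ΔMPC library. Of all genes, 0.332% were over 2-fold higher and 0.789% over 2-fold lower in both libraries. Intervals lay apart on the higher side for 7.94% and 13.4% of all genes and on the lower side for 3.61% and 8.59%. Among 26 collagens measured, Col4a5, a basement membrane chain, was more than 2-fold lower in both libraries and none was higher, and the medians were 0.08 and -0.16. Under TMM scaling, Bap1WT medians between 0 and 0.19 would stand at or below 0. Their summed level was lower in positive cells nonetheless, at 52550 against 74510 CPM and 33790 against 53810 CPM, because the abundant fibrillar chains led it. Col1a1 stood at 9121 against 17480 CPM and at 4217 against 10080 CPM, with ratios of -0.94 and -1.26. Col1a2 had ratios of -0.80 and -1.11 and Col3a1 of -0.42 and -0.71.

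Other collagens of the basement membrane zone went the other way, with Col15a1 at 0.92 and 0.79 and Col4a1 at 1.23 and 0.41. Of 24 elastic fiber genes 4 were more than 2-fold lower and none higher (medians 0.06 and -0.04), namely Eln, Mfap2, Fbn2 and the crosslinking enzyme Lox, at -1.36 and -2.47. Yet Fbln2, fibulin 2, stood at 1537 against 803 CPM and at 1168 against 624 CPM, with ratios of 0.94 (0.83 to 1.04) and 0.90 (0.85 to 0.96), and the list's summed level was higher in positive cells, at 19180 against 15910 CPM and 16730 against 14780 CPM. Of 36 proteases and inhibitors, Mmp3 was lower in both (medians -0.13 and -0.16). This stromelysin had ratios of -2.86 and -2.96 on 1 and 4 UMIs, whereas the proprotein convertase Pcsk6, at 841.5 and 1474 CPM, had 0.56 and 0.61.

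In the Wnt list 5 of 32 genes were lower in both libraries and none higher (medians -0.34 and -0.18). Besides Sfrp2, they were the Wnt amplifier Rspo3, with ratios of -2.76 and -2.54 on 2 and 6 UMIs, the antagonist Dkk2, with -1.09 and -2.59, and Dkk3 and the receptor Fzd10, each on 1 UMI in the Bap1WT library. These last were named after their values were seen. Sfrp4 had ratios of -0.86 and -1.15 and the ligand Wnt2, a marker of Dpp4-type cells, of -0.69 and -1.13. Ligands, a receptor and inhibitors were thus among the lower genes alike. In the BMP and TGF-β list 2 of 41 were lower in both (medians 0.05 and -0.05), with the BMP antagonist Chrdl1 at -1.20 and -2.48 and Gdf10 at -2.95 and -1.73. Id3, a BMP target, had -1.64 and -0.46.

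Neural factors and guidance genes were mixed. Of 29 neurotrophic genes, Ptn and the receptor Ntrk2 were over 2-fold lower in both libraries and none was higher (medians 0.20 and -0.20). The GDNF receptor pair was higher by less than 2-fold in the Bap1ΔMPC library and by more in the Bap1WT library. Ret, the signalling receptor, stood at 172 against 49.6 CPM and at 133 against 70.2 CPM, with ratios of 1.79 (1.44 to 2.12) and 0.92 (0.75 to 1.09). Gfra1, its ligand-binding co-receptor, stood at 18.8 against 4.28 CPM and at 43.9 against 24.6 CPM, with ratios of 2.14 (0.94 to 3.16) and 0.84 (0.54 to 1.13). Ret had a UMI in 76.5% and 59.8% of positive cells, against 27.5% and 41.2% of the others. The growth factor Igf1 had ratios of -0.93 and -1.17.

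Of 43 guidance genes Ephb2, an ephrin receptor with 1 UMI in the Bap1WT positive cells, was lower in both (medians -0.05 and -0.15). The Slit receptor Robo1 stood at 113 against 59.1 CPM and at 239 against 116 CPM, with ratios of 0.93 and 1.04, and the laminin-like Ntn4 had 0.95 and 0.82, while the semaphorin Sema3d had -0.95 and -1.78. Of 27 neural adhesion genes Map2 was higher and Lsamp and Nefm were lower in both, on 2, 1 and 1 UMIs in the Bap1WT positive cells (medians 0.28 and 0.22), and Lgi2, a secreted leucine-rich protein, had 1.28 (0.95 to 1.60) and 0.64 (0.52 to 0.76). Perineurial genes (6 measured, none past 2-fold in both, medians -0.25 and 0.03) and endoneurial and epineurial genes (11 measured, Sfrp2 lower in both, medians -0.18 and -0.55) had intervals apart in the Bap1ΔMPC library for 1 higher perineurial gene, and for 7 lower and 2 higher endoneurial and epineurial genes.

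Dpp4-type markers that the rule did not use were divided. Of 6 Dpp4-type genes taken from the study, none was past 2-fold in both libraries and the medians were -0.16 and -0.41. That list was chosen by the study on these libraries. Igfbp5 had ratios of -0.17 and -0.60 and the hyaluronan synthase Has1 of -1.49 and -0.26, while Sbsn, suprabasin, had 0.16 (-0.09 to 0.39) and 0.77 (0.69 to 0.86). Of 27 wider Dpp4-type markers 1, the sphingomyelinase Smpd3, was lower in both libraries, and the medians were 0.19 and 0.22. The phospholipase Pla1a had 1.52 and 0.78, the stathmin Stmn4 0.93 and 0.75 and the complement regulator Cd55 0.73 and 0.51.

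Of 10 Cxcl14-type markers 1 was lower in both (medians 0.03 and -0.15). It was Cxcl14 itself, at -2.31 on 1 UMI in the Bap1WT library and -1.68 (-2.04 to -1.35) in the Bap1ΔMPC library. The matricellular Smoc2 had 1.30 and 0.41. Per cell, this list's median was 21.1 and 12.9 UMIs per 10000 in positive cells, 13.5 and 13.2 in the other Dpp4-type cells, and 44.0 and 37.2 over all cells. The positive cells were thus near the other Dpp4-type cells in the Bap1ΔMPC library, and between these and all cells in the Bap1WT library. Bap1WT cells with Krt7 and no Plet1 stood at 26.55, and those with Plet1 and no Krt7 at 14.8. All cells include the Dpp4-type ones, and the cut on the Dpp4-type sum bears on this measure. General FAP genes (13 measured) had none past 2-fold in both and medians of -0.03 and -0.08.

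Surface proteins had medians close to those of all genes. Of 29 surface genes none was past 2-fold in both libraries. In the Bap1WT library 12 were higher and none lower with intervals apart from no difference, and in the Bap1ΔMPC library 14 and 7. Over all genes, 7.94% were higher and 3.61% lower by that measure in the Bap1WT library, and 13.4% and 8.59% in the Bap1ΔMPC library. The medians of the list were 0.20 and 0.12. The Bap1WT median would be near 0 under TMM scaling. The syndecan Sdc2 had ratios of 0.66 and 0.53, and the tetraspanin Cd9 of 0.70 and 0.38. Among 16 GPI-anchored proteins of the kind of Plet1, none was past 2-fold in both (medians -0.06 and -0.21), with Thy1 at 0.75 and 0.50.

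Chemokine and acute-phase genes had the lowest medians of the lists with 20 or more genes measured in the Bap1WT library, -0.80, and -0.70 in the Bap1ΔMPC library, where only the cell-cycle list stood lower. Of 23 measured, C7 was over 2-fold higher and Cxcl10 lower in both, and 8 and 16 were lower with intervals apart. The pentraxin Ptx3 had ratios of -1.86 and -0.91 and Cxcl1, a neutrophil chemokine, of -0.97 and -0.70. Complement C3 stood at 56.5 against 444 CPM and at 471 against 693 CPM, with ratios of -2.97 and -0.56.

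Immediate-early genes also respond to tissue digestion. Of 35 measured none was past 2-fold in both libraries, and the medians were -0.47 and -0.11. Yet 25 and 22 were lower with intervals apart, against 1 and 3 higher, beside 3.61% and 8.59% lower over all genes. Nfkbia, the NF-κB inhibitor, had ratios of -1.43 and -0.55, Ier3 of -1.79 and -0.71, and Fosb of -0.96 and -0.49. The part of digestion response in the chemokine values was not tested. Interferon and MHC class I genes (28 measured, none past 2-fold in both) had medians of 0.04 and -0.39, and 18 were lower and 1 higher with intervals apart in the Bap1ΔMPC library.

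The cell-cycle list had medians below those of all genes. Of 40 measured 5 were over 2-fold lower in both libraries and none higher, each of them (Ccnb2, Cenpa, Cenpe, Cenpf and Kif23, genes of mitosis) on 1 UMI in the Bap1WT positive cells, and the medians were -0.36 and -0.77. Mki67, a proliferation marker, had no UMI in the positive cells of the Bap1WT library against 12.1 CPM, and stood at 6.31 against 18.6 CPM in the Bap1ΔMPC library, a ratio of -1.56 (-2.28 to -0.91). Yet the shares of cells with 5 or more cell-cycle UMIs were 8.82% and 15.7% of positive cells and 9.74% and 14.5% of the others, so the list's lower level did not show as fewer such cells. Limb position genes, mostly of the Hox clusters (25 measured, none past 2-fold in both), had medians of -0.47 and -0.32, and p53 targets and cell-cycle inhibitors (21 measured, Cdkn2c lower in both) of 0 and 0.06.

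The marker lists of other cell types, on the genes that reached 20 UMIs, had none higher than 2-fold in both libraries except Des in the muscle list (8 measured, medians 0.82 and 0.21). The medians were 0.05 and 0.18 for 3 mesothelial, 0.11 and 0.42 for 6 endothelial, 0.50 and -0.17 for 4 immune, 0.18 and 0.13 for 6 Schwann cell, -0.05 and -0.42 for 6 tendon, -0.46 and -0.13 for 7 mural (Kcnj8 lower in both), -0.39 and -0.03 for 6 adipocyte and -0.44 and 0.01 for 1 erythroid gene. The epithelial list had 11 measured genes besides Krt7 and Plet1, none past 2-fold in both, at medians of -0.07 and 0. Aldh1a2, a retinoic acid synthesizing enzyme in the mesothelial list, stood at 103 against 16.2 CPM and at 38.8 against 22.2 CPM. Its ratios were 2.67 (2.19 to 3.12) and 0.81 (0.49 to 1.12). A single cell gave 46.9% of its UMIs in the Bap1WT positive cells.

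Cells with Krt7 alone and cells with Plet1 alone were next compared with each other. They numbered 20 and 13 in the Bap1WT library and 140 and 103 in the Bap1ΔMPC library, where 38 more held both. Median Dpp4-type sums were 45.7 for Krt7 alone and 90.6 for Plet1 alone in the Bap1WT library, and 43.6, 74.5 and 66.1 for Krt7 alone, Plet1 alone and both in the Bap1ΔMPC library. Of 8763 genes, 247 (2.82%) were over 2-fold higher with Krt7 alone in the Bap1ΔMPC library and 181 (2.07%) with Plet1 alone. With intervals apart these were 143 (1.63%) and 137 (1.56%). Of those 280 genes, 57 had at least 20 UMIs in the Bap1WT cells, and there 50 of the 57 went the same way and 7 the opposite way. The like share over all genes was not computed. The Dpp4-type sums also differed in the same direction in both libraries, so this count is a description only. The genes named next were chosen after their values were seen.

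Dmkn, Sbsn and Perp were high with Plet1 alone in the Bap1ΔMPC library. Dmkn, dermokine, an epidermal secreted protein, stood at 121 CPM with Plet1 alone, 10.2 CPM with Krt7 alone and 21.3 CPM with neither in the Bap1ΔMPC library, a log2 ratio of Krt7 alone over Plet1 alone of -3.56 (-4.38 to -2.84). In the Bap1WT library it had 8 UMIs in the 13 cells with Plet1 alone and none in the 20 with Krt7 alone. Sbsn, which lies in the same epidermal gene cluster, stood at 734, 204 and 281 CPM, a ratio of -1.85 (-2.03 to -1.66), and at 668, 106 and 288 CPM in the Bap1WT library. Perp, a desmosome-associated protein, stood at 20.9, 1.20 and 2.73 CPM, and had no UMI in either kind of Bap1WT cell.

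Further genes on the Plet1 side were Ptgs1, the constitutive prostaglandin synthase, at 134 against 30.7 CPM, the immunoglobulin-like receptor Ildr2 at 156 against 42.2 CPM, and the BMP family member Bmp3 at 39.3 against 4.22 CPM. Ptgs1 and Ildr2 had ratios of -2.12 and -1.89 in the Bap1ΔMPC library and -1.56 and -1.46 in the Bap1WT library. Bmp3 had -3.22 in the Bap1ΔMPC library and -0.76 (-2.45 to 0.9) in the Bap1WT library. Igfbp5 stood at 3990 CPM with Plet1 alone, near the 3742 CPM of cells with neither, and at 1371 CPM with Krt7 alone. Bap1WT cells had it at 6292 CPM with Plet1 alone, 2008 CPM with Krt7 alone and 4017 CPM with neither. Against Bap1ΔMPC cells with neither gene, weighted to a like Dpp4-type sum, Dmkn had -0.93 with Krt7 alone and 1.79 with Plet1 alone. Sbsn had -0.39 and 0.91 there, and Igfbp5 -1.36 and -0.39. By the same weighting in the Bap1WT library, Sbsn had -0.94 and 0.63 and Igfbp5 -0.59 and 0.16. Dmkn had 1.7 with Plet1 alone there.

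Ctgf, Mfap4 and Igfbp7 were higher with Krt7 alone than with Plet1 alone in the Bap1ΔMPC library. Ctgf, a matricellular growth factor, stood at 137 against 35.1 CPM, with 72.8 CPM in cells with neither, Mfap4 at 300.5 against 88.6 CPM, with 269.5 CPM, and Igfbp7 at 258 against 82.7 CPM, with 211 CPM. Their ratios were 1.96, 1.76 and 1.64, and in the Bap1WT library Mfap4 had 1.27 and Igfbp7 2.31, while Ctgf had 0.14 (-0.54 to 0.85). Postn stood at 730 and 271 CPM, so that both kinds were below the 1602 CPM of cells with neither. Aldh1a2 stood at 58.4 CPM with Krt7 alone, 15.04 CPM with Plet1 alone and 22.2 CPM with neither. Its higher level in positive cells was thus on the Krt7 side.

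The chemokines Ccl2, at 113 against 33.4 CPM, and Ccl11, at 250 against 95.3 CPM, were also higher with Krt7 alone in that library. In the Bap1WT library Ccl11 had a ratio of 1.20 and Ccl2 of -0.07 (-0.90 to 0.79), and of 22 chemokine and acute-phase genes 6 were higher and 4 lower with intervals apart in the Bap1ΔMPC library (median 0.16). Over all genes, the interval lay apart from no difference on the higher side for 557 (6.36%) and on the lower side for 527 (6.01%). Of 20 collagens, 18 were higher with Krt7 alone with intervals apart (median 0.37, beside 0.03 for all genes), as were 5 of 8 Cxcl14-type markers (median 0.81). Of the wider Dpp4-type markers 15 of 26 were lower (median -0.24), as were 5 of 6 of the study's (median -0.55), in step with the lower Dpp4-type sums above. Of 18 cell-cycle genes 8 were lower (median -0.60). Against cells with neither, this list's median was -0.34 with Krt7 alone and 0.44 with Plet1 alone. Cells with 5 or more cell-cycle UMIs were 13.6% with Krt7 alone, 15.5% with Plet1 alone and 23.7% with both. What the lower sums account for was not tested beyond the weighting above.

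**Figure D4:**
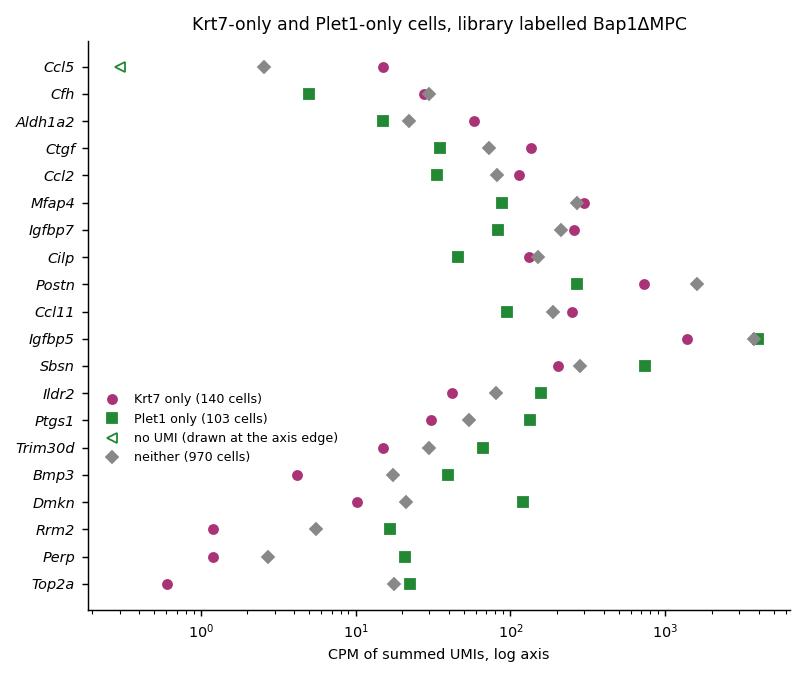
CPM (logarithmic axis) of genes that differed between Dpp4-type cells with Krt7 alone, with Plet1 alone and with neither in the library labelled Bap1ΔMPC, chosen after their values were seen; the open triangle at the axis edge stands for no UMI. Dmkn and Sbsn were highest with Plet1 alone, at 121 and 734 CPM, and Ctgf and Aldh1a2 with Krt7 alone, at 137 and 58.4 CPM.

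The second comparison set the positive cells of the Bap1ΔMPC library against those of the Bap1WT library. Of 9358 genes with at least 20 UMIs, 288 (3.08%) were more than 3-fold higher in the Bap1ΔMPC library and 145 (1.55%) more than 3-fold lower. At a minimum of 1 UMI the order was reversed, with 288 higher and 366 lower. The interval lay apart from no difference for 125 of the 288 and for all 145. For many of these genes the other Dpp4-type cells pointed the same way, since 237 and 140 had a ratio of the same sign there, and 38 and 9 were past 3-fold there too. Among the other Dpp4-type cells 190 of 12313 genes (1.54%) were over 3-fold higher and 161 (1.31%) lower. TMM scaling shifted these ratios by 0.04 in positive cells and -0.08 in the others. With 34 cells in the Bap1WT group, single cells weigh on its sums.

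Among the higher genes, Cldn11, a tight junction claudin, stood at 145 CPM in positive cells of the Bap1ΔMPC library and at 2.09 CPM, a single UMI, in those of the Bap1WT library. Its log2 ratio was 6.12 (3.63 to 11.42), and 2.39 in the other Dpp4-type cells. Complement C3 stood at 471 against 56.5 CPM (3.06, 2.51 to 3.67), beside 0.64 in the others, and 51.9% of its Bap1WT UMIs came from 1 cell. Cdkn1a, the p21 cyclin-dependent kinase inhibitor, stood at 352 against 64.9 CPM (2.44, 1.93 to 3.01), beside 0.86, with 48.4% of the Bap1WT UMIs in 1 cell. Both thus had their low level in spite of 1 cell that held much of it.

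Itgb7, an integrin chain, stood at 100.4 against 6.28 CPM, with ratios of 4.00 in positive cells and 2.37 in the others. The extracellular glutathione peroxidase Gpx3 stood at 589 against 107 CPM, with 2.46 and 1.04, and the fibrillar collagen Col27a1 at 37.3 against 2.09 CPM, with 4.15 and 1.64. Pcsk2, Tesc and Rgcc had no UMI in the Bap1WT positive cells. Against a floor of 3 counts over the group, their log2 ratios were at least 2.53 for Pcsk2, a neuroendocrine proprotein convertase, at least 2.50 for the calcium-binding Tesc and at least 2.20 for the cell-cycle regulator Rgcc. In the other Dpp4-type cells they were 4.89, 1.95 and 0.27.

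The lower genes were led by Entpd1 (CD39), an ectonucleotidase, which stood at 2.71 CPM in positive cells of the Bap1ΔMPC library against 52.3 CPM, a ratio of -4.27 (-5.56 to -3.13), beside -1.42 in the others. Lrrc17, a secreted leucine-rich protein, stood at 8.72 against 107 CPM (-3.61, -4.32 to -2.93), beside -1.58. The retinol-oxidizing Adh1 had -4.08 beside -1.51, Pdgfrl -3.40 beside -1.71, the guanine nucleotide exchange factor Dock10 -3.97 beside -0.72, and Cthrc1, a collagen repeat protein, -3.18 beside -1.40. Penk, the enkephalin precursor, stood at 4.81 against 48.1 CPM, with -3.32 beside -1.72. Mmgt2, the apolipoprotein Apod and Fibin had -3.69, -2.83 and -3.61, beside -1.30, -1.12 and -1.75. Each of these 10 genes was lower in both kinds of Dpp4-type cell. They were picked by their ratio in the positive cells, so the larger drop there cannot be read apart from that choice.

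Listed genes between the libraries ran as follows, beside medians over all genes of 0.04 in positive and 0.08 in the other Dpp4-type cells. Over all genes in positive cells, 3.08% were over 3-fold higher and 1.55% over 3-fold lower. Of 21 collagens 1 was over 3-fold higher and 1 lower (median -0.03, beside 0.25), with Col1a1 at -1.11 beside -0.79 and Col4a5 at -2.31 beside -1.48. Of 14 GPI-anchored proteins 4 were over 3-fold lower and none higher (median -0.31, beside 0.06), namely the uPAR-family Lypd1, at -2.54, the heparan sulfate proteoglycans Gpc3, at -2.10, and Gpc4, at -1.76, and the prion protein Prnp, at -2.01. Of 32 guidance genes 1 was higher and 4 lower, with the Slit ligand Slit3 at -1.77 beside -0.68. Of 22 chemokine and acute-phase genes 5 were higher and 3 lower, with Cxcl12 at -2.37 beside -1.22 and Ccl11 at -1.98 beside -1.14. Cxcl14 had 3.49 on 1 Bap1WT UMI, beside 2.85.

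Among 19 cell-cycle genes 4 were higher (median 0.51, beside 0.62), among 35 immediate-early genes 3 (0.38, beside -0.01), and among 25 interferon and MHC class I genes 2 (0.45, beside 0.62), with none lower in any of these lists. Krt80, of 6 epithelial genes, had 1.35 beside 1.14. The wider Dpp4-type list had 1 lower of 26, at medians of 0.20 and 0.18, with the deubiquitinase Uchl1 at 1.35 beside 0.97.

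**Figure D5:**
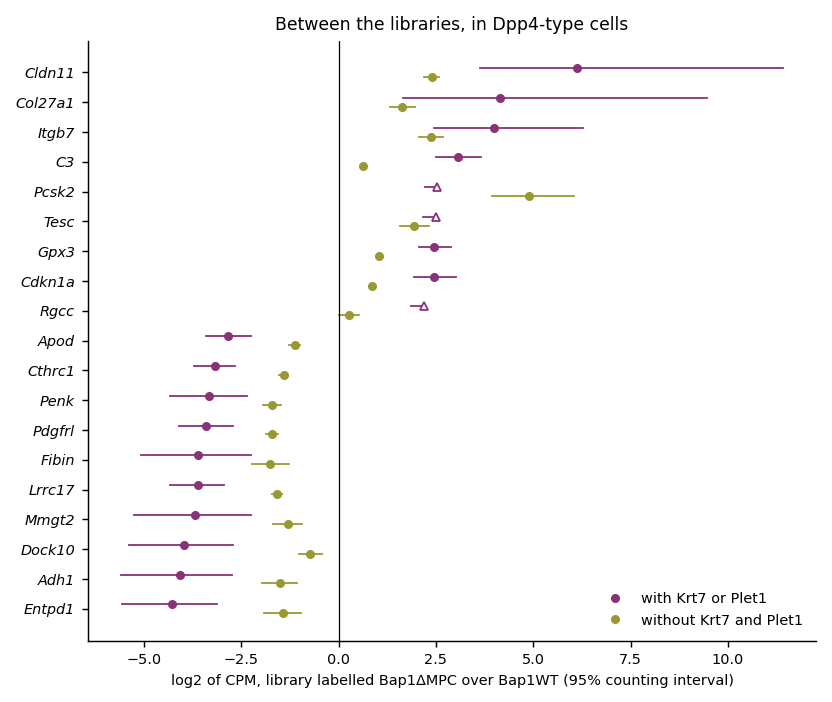
Log2 ratio of CPM in the library labelled Bap1ΔMPC over the library labelled Bap1WT (horizontal axis) for the 19 named genes (vertical axis), in Krt7/Plet1-positive cells and in the other Dpp4-type cells; bars are exact 95% intervals for counting error, and open triangles are lower bounds for genes with no UMI in the Bap1WT positive cells. The 10 lower genes, picked by their ratios in positive cells, had ratios between -2.83 and -4.27 there and between -0.72 and -1.75 in the others.

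The last comparison was the difference of these library ratios, that is, the log2 ratio in positive cells minus that in the other Dpp4-type cells. It was over 2-fold upward for 479 of 9262 genes (5.17%) and over 2-fold downward for 361 (3.9%), and its interval, from the normal approximation to Poisson counts, lay apart from no difference for 81 and 242 of these. TMM scaling shifted all differences by 0.12 and gave 628 upward and 259 downward, and a minimum of 1 UMI gave 615 upward and 1154 downward. C3 led the upward genes with 2.42 (1.86 to 2.97), followed by Cxcl2, 4.55 (1.67 to 7.42), Il6, 3.18 (1.53 to 4.83), Cdkn1a, 1.58 (1.06 to 2.10), and Gpx3, 1.42 (1.02 to 1.83). The Cxcl2 value rests on 1 UMI in the Bap1WT positive cells. In the Bap1ΔMPC positive cells, 55% of its UMIs came from 1 of the 8 cells that held any. For all 5 named upward genes the lowest of the 4 levels was that of the Bap1WT positive cells. Il6, an inflammatory cytokine, stood at 6.28 CPM there, and at 93.3, 49.6 and 81.2 CPM in the other Bap1WT cells and in the positive and other Bap1ΔMPC cells.

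Downward, Dock10 had -3.25 (-4.49 to -2.02), Inhba -2.85 (-3.72 to -1.98), Entpd1 -2.85 (-4.04 to -1.66), Thbs4 -2.14 (-2.67 to -1.62) and Cdh4 -2.88 (-4.21 to -1.55). Inhba, an activin chain, stood at 56.5 CPM in the Bap1WT positive cells and between 7.82 and 8.12 CPM in the other groups. Several of these differences depended on the processing. After thinning to 5000 UMIs, Dock10 had -0.98, Entpd1 -0.78 and Il6 0.73, all under 2-fold, and at a sum of at least 30 Thbs4 had -0.43. A single cell gave 47% of the Thbs4 UMIs of the Bap1WT positive cells. For all 5 genes with downward differences the highest of the 4 levels was that of the 34 Bap1WT positive cells.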

How the data were processed

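The authors aligned the reads with Cell Ranger, then used Seurat to drop cells of low quality, doublets and cells that were not FAPs. What they deposited were unnormalized UMI counts, with a row for each gene and a column for each cell. The submitters' processing notes name FastQC 0.11.7, bcl2fastq 2.20.0, Cell Ranger 3.1.0, R 3.6.1, Seurat 3.2.1 and the build mm10. The filter thresholds are not given in the sources used here. The deposited counts covered 31053 genes, 10553 of them without a UMI in these cells, and all cells were kept, with no further doublet removal.

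UMIs were summed over the cells of each group in Python 3.11.15 (numpy 2.4.6, pandas 2.3.3, scipy 1.17.1), and CPM totals left out the 6 genes of the rule. Ratios had exact binomial 95% intervals on the 2 sums, shares had Clopper-Pearson intervals, and a count of 0 was set to a floor of 3 counts. TMM factors came from edgeR 4.0.16 in R 4.3.3, without a test. The scripts were tested on simulated data.

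The 20 named genes of a comparison were the 10 higher and 10 lower genes past the fold (5 and 5 for the difference of ratios) with the interval bound farthest from no difference, in the weaker library. Up to 4 genes of each of 32 lists were chosen likewise, and predicted and mitochondrial genes were not named. A gene that the rule named between the libraries is not reported here. The cells, the lists and the rules were chosen with earlier results of these data known. Alternatives were thinning, other cuts, folds, UMI minimums and scalings, and leaving out the 2% of cells with most UMIs.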

Additional observations from a re-analysis of the deposited data

Results flagged for a closer look

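For 6 named genes the positive cells lay on opposite sides of the other Dpp4-type cells in the 2 libraries, each with an interval apart from no difference, and the difference between libraries was not tested. In log2 ratios of positive over other Dpp4-type cells, first in the Bap1WT and then in the Bap1ΔMPC library, Cldn11 had -3.26 and 0.46, Cdkn1a -1.43 and 0.15 and Gpx3 -1.30 and 0.12. The reverse order was seen for Adh1, with 1.37 and -1.20, for Thbs4, with 1.39 and -0.75, and for Dock10, with 0.86 and -2.40. Over all genes with intervals apart in both libraries, 588 pointed the same way and 66 the opposite way.

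Outside the Dpp4-type class, 4.89% of cells of the Bap1ΔMPC library held a UMI of Krt7 or Plet1, against 1.18% in the Bap1WT library, in cells that the comparisons between groups did not use.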

How the results depend on the processing

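No paired analysis was possible because both genotypes are single libraries, and for the same reason no replicate could be left out. Positive cells with at least 2 UMIs of Krt7 and Plet1 made up 0.952% and 17.2% of Dpp4-type cells in the Bap1WT and Bap1ΔMPC libraries, and after thinning to 5000 UMIs 1.57% and 18.7%, so the order of the libraries was kept. Sum cuts of 20 and 30, another Dpp4-type sum, and leaving out the deepest 2% of cells or cycling cells gave 3.01 to 3.27% and 21.96 to 23.9%. The 125 genes past 2-fold in both libraries became 66 after thinning, 52 at a minimum of 100 UMIs, 480 at 1.5-fold, 30 at 3-fold and 48 with intervals apart. At a minimum of 1 UMI they were 181. The 433 genes between libraries became 654 at a minimum of 1 UMI, 76 at 100 UMIs, 1238 at 2-fold and 270 with intervals apart. The 840 differences of ratios became 1354 with at least 2 UMIs of the pair, 1769 at a minimum of 1 UMI, 110 at 100 UMIs, 243 at 3-fold and 323 with intervals apart. Counts with intervals apart, weighting to the Dpp4-type sum, and cells chosen by Krt7 or by Plet1, with or without the other gene, were added after seeing the data. Only 20 of the 66 genes after thinning were among the 125. With cells chosen by Krt7, whatever their Plet1, 57 of 123 were, and by Plet1, whatever their Krt7, 55 of 139. Single genes near the fold are therefore not firm. With cells chosen by Krt7, whatever their Plet1, Anxa8 turned to -0.60 in the library nearer to no difference. Counted over named genes and alternatives, 200 of 234 recomputed ratios within libraries, 126 of 145 between libraries and 67 of 77 differences of ratios stayed within the interval of the reported value. The 34 Bap1WT cells limit all these values.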

Other observations

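Among cells below 5 on the Dpp4-type sum, 78 genes were more than 3-fold lower in the Bap1ΔMPC library. In the Krt7/Plet1-positive cells these genes had a median log2 ratio to the other Dpp4-type cells of -0.21 in the Bap1WT library and -0.67 in the Bap1ΔMPC library, beside 0.10 and 0.05 over all genes. In the Bap1ΔMPC library 60 of the 78 were below 0 and 18 above, whereas 57.4% of all 10646 genes were above 0. The 110 genes more than 3-fold higher in the Bap1ΔMPC library among those low cells had medians of -0.04 and -0.08. They too leaned lower in its positive cells, with 63 below 0 and 47 above.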
